A study of Mus musculus with 13 samples.

Results

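The 9 genes described here encode transcription factors that set or maintain the identity of microglia, brain-resident macrophages: Spi1, Irf8, Runx1, Cebpa, Sall1, Mef2a, Mef2c, Bhlhe40 and Bhlhe41. They were chosen by gene symbol, with earlier results of these data known, and each symbol matched 1 of the 19737 genes in the deposited expression table. All 9 passed the filter on low values (a mean of at least 1 FPKM) and are among the 10817 genes tested. FPKM, the unit of every level below, counts sequenced fragments divided by gene length and by the size of the library. Levels of different genes can be set side by side only roughly, since they depend on the length taken for each gene.

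RNA of mouse microglia was measured in 13 libraries by ribosomal RNA-depleted total RNA sequencing. Of these, 3 came from wild type mice and 2 from 5xFAD mice that had been given EGFP, a fluorescent protein, in AAV PHP.eB, an adeno-associated virus capsid. 5xFAD mice model the amyloid pathology of Alzheimer's disease, with transgenes driven by the neuronal Thy1 promoter. A further 5xFAD group (n = 4) is titled circRNA, and its treatment labels name the same capsid with circPOLR2A, a circular RNA. Those labels read (9,10) in replicate 1, (9,11) in replicate 2, (9,12) in replicate 3 and (9,13) in replicate 4, while the series' design gives (9,10) for all of them, so whether the construct was the same in each was not settled. The last group (n = 4) is labelled as 5xFAD with a knockout of PKR, a kinase that senses double-stranded RNA. Its labels name no vector, and its libraries alone carry library names, so a vector or library-making difference cannot be told apart from the knockout. Age and sex are not given in the labels used here. The labels do not say whether libraries of a group came from separate animals, and p-values then measure only the spread between these libraries.

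Microglia arise from yolk sac progenitors and depend throughout life on PU.1, the product of Spi1, which opens macrophage enhancers together with IRF8, RUNX1 and C/EBP factors. Within the brain, signals such as TGF-beta add factors that separate microglia from other macrophages, SALL1 above all, while MEF2 proteins act with PU.1 at microglial enhancers. BHLHE40 and BHLHE41 are closely related repressors that bind E-boxes and restrain lysosomal and lipid genes in macrophages. Loss of several of these factors in mice is known to disturb microglial number, identity or activation.

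In the GRCm38 build, Spi1 lies at chr2:91082390-91115756 (plus strand), Irf8 at chr8:120736358-120756694 (plus strand) and Runx1 at chr16:92601466-92826149 (minus strand). Cebpa is at chr7:35119293-35121928 (plus strand), Sall1 at chr8:89027235-89044162 (minus strand), Mef2a at chr7:67231163-67372858 (minus strand) and Mef2c at chr13:83504034-83667080 (plus strand). Bhlhe40 (chr6:108660629-108666925, plus strand) and Bhlhe41 (chr6:145858243-145865558, minus strand) share a chromosome. All 9 are protein-coding, and each level below sums the fragments over the exons of a whole gene. In the RefSeq promoter table for GRCm38.p6, 7 of the 9 genes had an entry, with 13 windows in all. Each window runs from 250 bases before to 50 bases after a transcription start. Spi1 and Bhlhe40 had no entry. Windows of 4 genes are shown because Bhlhe41 and Irf8 separated all 5xFAD from all wild type libraries, and Runx1 and Mef2a separated the PKR knockout libraries from all others. Capitals mark CACGTG (the E-box bound by BHLHE40 and BHLHE41), GAGGAA (a PU.1 core), TGTGGT (a RUNX site), TTGCNNAA (a C/EBP site) and GAAANNGAA (an interferon response type site), each searched on both strands.
Bhlhe41 (chr6:145865371-145865670, minus strand): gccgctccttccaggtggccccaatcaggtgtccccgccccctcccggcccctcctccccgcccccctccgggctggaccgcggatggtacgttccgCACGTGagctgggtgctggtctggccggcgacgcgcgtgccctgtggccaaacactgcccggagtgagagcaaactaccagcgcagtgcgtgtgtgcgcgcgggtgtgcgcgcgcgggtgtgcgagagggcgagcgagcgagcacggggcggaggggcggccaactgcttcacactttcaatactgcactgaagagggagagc
Irf8 (chr8:120736108-120736407, plus strand): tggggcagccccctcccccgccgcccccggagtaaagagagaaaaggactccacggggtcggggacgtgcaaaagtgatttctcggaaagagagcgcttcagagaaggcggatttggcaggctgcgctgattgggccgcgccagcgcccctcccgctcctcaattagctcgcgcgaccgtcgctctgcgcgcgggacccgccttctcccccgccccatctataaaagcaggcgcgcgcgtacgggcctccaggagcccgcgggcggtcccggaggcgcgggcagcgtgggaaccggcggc
Runx1 (chr16:92826025-92826324, minus strand): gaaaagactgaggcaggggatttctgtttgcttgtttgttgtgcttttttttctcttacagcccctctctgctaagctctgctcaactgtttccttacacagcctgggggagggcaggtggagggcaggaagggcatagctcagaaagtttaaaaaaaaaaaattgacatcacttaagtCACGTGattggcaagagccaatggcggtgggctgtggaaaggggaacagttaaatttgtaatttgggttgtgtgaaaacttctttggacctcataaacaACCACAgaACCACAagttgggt
Mef2a (chr7:67372809-67373108, minus strand): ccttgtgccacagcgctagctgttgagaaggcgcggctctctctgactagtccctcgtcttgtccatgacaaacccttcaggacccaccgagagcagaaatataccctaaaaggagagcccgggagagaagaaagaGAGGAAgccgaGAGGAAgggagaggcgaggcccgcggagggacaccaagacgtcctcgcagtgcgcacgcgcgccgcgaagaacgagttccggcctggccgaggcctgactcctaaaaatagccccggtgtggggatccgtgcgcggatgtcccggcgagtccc

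The Bhlhe41 window holds 1 E-box, 153 bases before the start, and the Runx1 window holds another, 71 bases before it. An E-box is present in 2 of the 13 windows, beside 7.15% of all 32851 windows in the table. The Runx1 window also has the RUNX letters on the opposite strand at positions 29 and 37 after the start, letters found in 16.8% of all windows. The Mef2a window has the PU.1 core at 114 and 103 bases before the start. That core is in 4 of the 13 windows, those of Mef2a, a second start of Runx1 and 2 of the 3 starts of Mef2c, and in 28.3% of all windows. The Irf8 window shown holds none of the 5 motifs. None of the 13 windows holds the C/EBP letters (10.8% of all windows) or the interferon response letters (8.56% of all windows). These matches describe the letters only.

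Depth recovered from the steps in the FPKM values was 45.2 to 70.0 M (mega) fragments a library, highest in the PKR knockout group (57.7 to 70.0 M). A member's value rested on 456 to 37624 fragments, a counting error of 0.516% to 4.68%, beside a spread between replicates (SD over mean) of 1.41% to 43.8%. The narrowest spread was that of Runx1 in the PKR knockout group, beside counting errors of 0.838% to 0.912% in those libraries. Eif2ak2, the gene for PKR, was at 3.31 to 4.61 FPKM in the knockout libraries, below the 6.49 to 8.11 FPKM of the other 5xFAD libraries, and overlapped wild type (4.14 to 5.23 FPKM). In the knockout group Eif2ak2 changed by -0.64 on the log2(FPKM + 1) scale against 5xFAD EGFP (limma adjusted p = 0.0644) and by -0.27 against wild type (0.0486), and circRNA was higher than the knockout by 0.85 (0.00147). The level of the whole gene was thus lower but not near 0, and the deleted part is not given in the labels used here, so PKR knockout below names the label.

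Wild type replicate 3 stood apart from the other wild type libraries. All 10 microglia markers were lowest in it among the wild type libraries, with a summed level of 2737 FPKM against 4303 and 4376 FPKM. All 6 neuron, 5 astrocyte and 5 oligodendrocyte markers were highest in it, and the oligodendrocyte sum was 1534 FPKM against 374 and 332 FPKM. Among the factors, 8 of 9 were lowest in this library and Bhlhe40 was highest. The share of all genes tested that were lowest in it was not computed, so this count is not shown to be particular to the factors. Results against wild type are therefore given without it as well where the call of a factor changed, or a factor's change moved by over 1.5 times. Markers of the labelled cell type were present in all 13 libraries, with microglia sums of 2737 to 4717 FPKM and no marker at 0. The 4 lymphocyte markers summed to 0.0614 to 0.269 FPKM and the 4 monocyte markers to 0.641 to 1.89 FPKM. The 6 border macrophage markers summed to 41.9 to 66.3 FPKM in wild type and 15.5 to 28.6 FPKM in 5xFAD, and all 6 passed as lower in each 5xFAD group. Endothelial and mural markers summed to 57.9 to 132 FPKM in wild type and 26.1 to 66.2 FPKM in 5xFAD. The part of these cells in the results below was not tested. In such bulk RNA, fewer cells of a type and less RNA in each cell cannot be told apart.

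**Figure D1:**
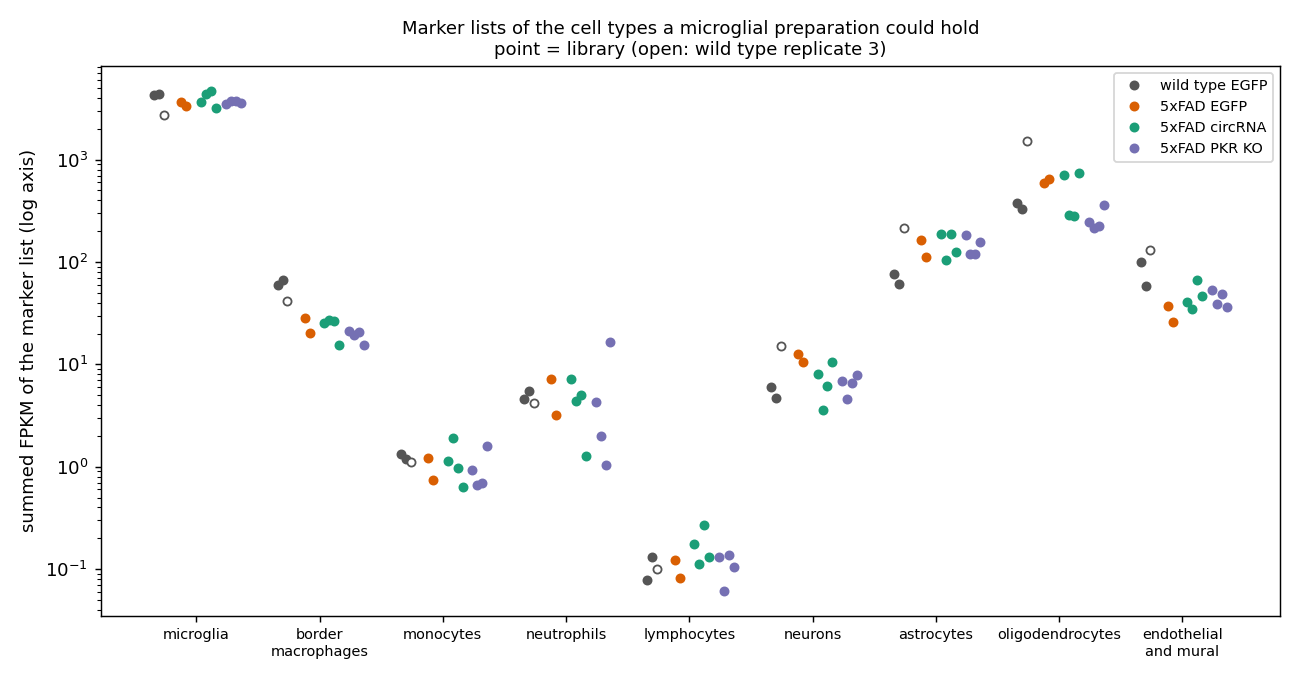
Summed FPKM (log axis) of each cell type marker list in every library, with points coloured by group and wild type replicate 3 drawn open. The oligodendrocyte sum of that library, 1534 FPKM, lies above every other library, its microglia sum of 2737 FPKM lies below, and border macrophage sums are higher in wild type than in every 5xFAD library.

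All 9 factors were expressed in every library, over a range from 2.03 to 130 FPKM. By the mean over the 13 libraries the order was Sall1 (96.4 FPKM), Cebpa (93.7 FPKM), Irf8 (46.4 FPKM), Spi1 (40.2 FPKM), Mef2a (27.4 FPKM), Bhlhe41 (23.7 FPKM), Mef2c (20.6 FPKM), Runx1 (15.1 FPKM) and Bhlhe40 (10.3 FPKM). Sall1 ranked between 83 and 188 among all genes of a library, and Cebpa between 125 and 249. Bhlhe40 had the widest span, from rank 8591 to rank 1566 and a highest value 6.89 times its lowest, while Sall1 had the narrowest at 1.58 times. Of the 36 pairs of factors, 29 kept the same order in all 13 libraries. The order was mixed for 4 pairs: Sall1 and Cebpa, Spi1 and Mef2a, Mef2a and Bhlhe41, and Runx1 and Bhlhe41. For 3 pairs the order was opposite in wild type and 5xFAD, as described further on. Levels of different genes were not tested against each other.

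**Figure D2:**
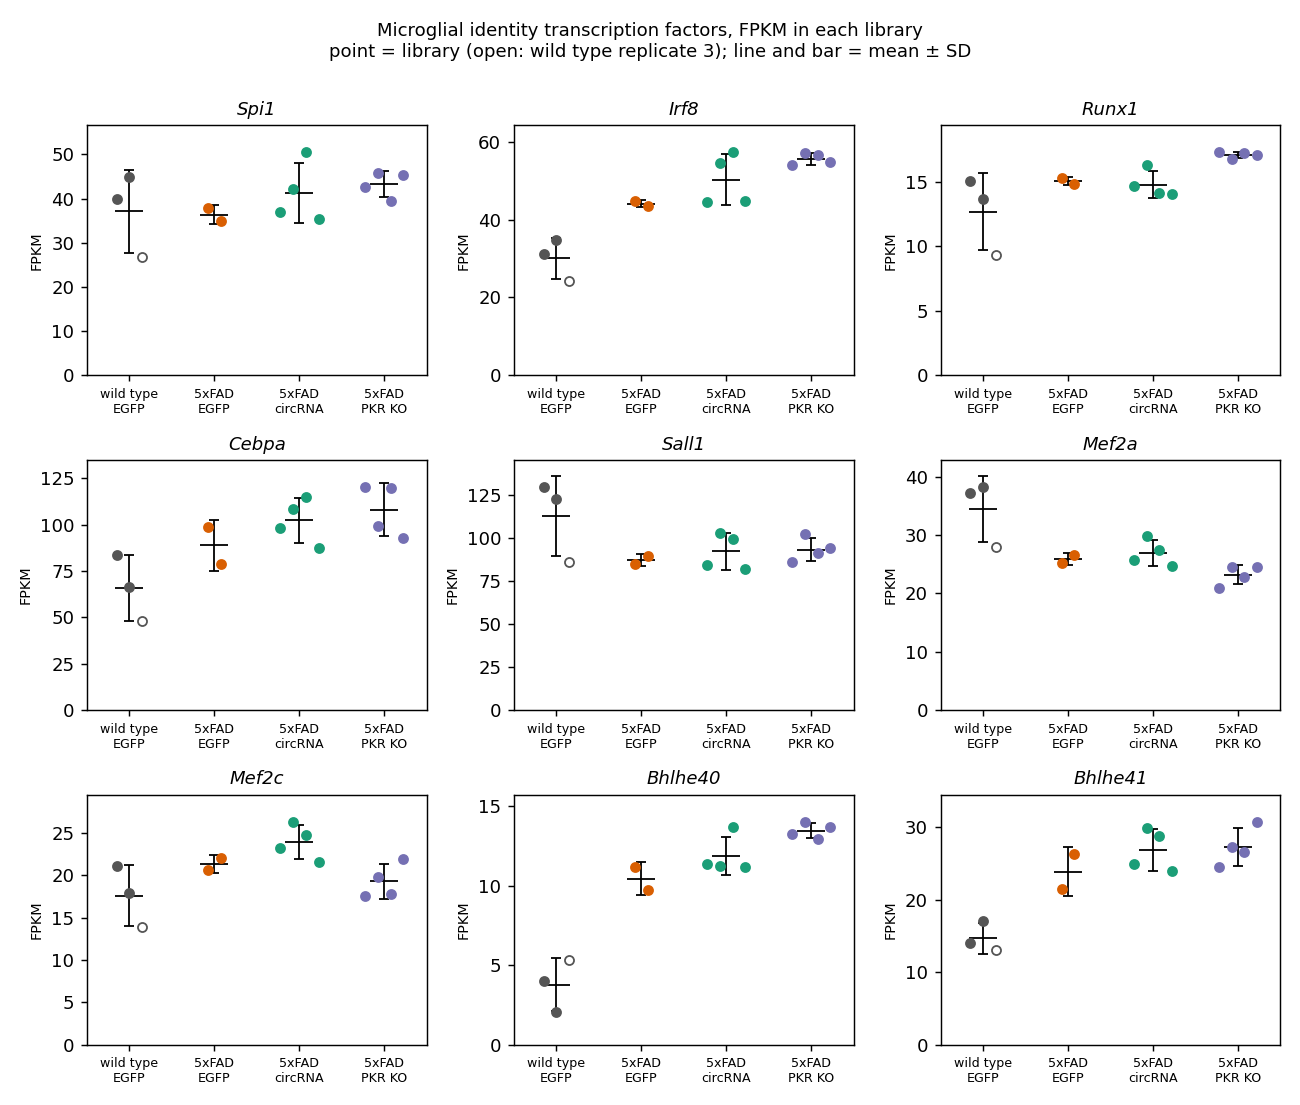
FPKM of each transcription factor (linear axes from 0) by group, with a point for each library, wild type replicate 3 drawn open, and a line and bar for the mean ± SD (n = 3, 2, 4 and 4). Bhlhe40, Bhlhe41 and Irf8 have no wild type library within the range of the 5xFAD libraries, and 8 of the 9 factors are lowest in the open point among wild type.

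Comparing 5xFAD with wild type, both with EGFP, asks what the disease model changes in these factors. Irf8, Bhlhe40 and Bhlhe41 were higher in 5xFAD and none of the 9 was lower by limma's adjusted p, beside 7.65% of all genes tested called higher and 6.35% called lower. The median change of the 9 was 0.28 on the log2(FPKM + 1) scale, used for every change below, against -0.03 over all genes. Without wild type replicate 3, which was low in 8 of the factors, 3 factors were higher and 2 lower, beside 8.96% and 9.51% of all genes. The median of the 9 was then 0.13, against -0.06 over all genes. In the circRNA group 5 factors were higher than in wild type and 1 was lower, where 17.8% of all genes were called higher and 8.05% lower. In the PKR knockout group again 5 were higher and 1 was lower, where 17.5% and 19.4% of all genes were called. Median changes of the 9 were 0.44 with circRNA and 0.43 with PKR knockout, against 0.02 and -0.05 over all genes. Without that wild type library these medians were 0.29 and 0.24, against 0.02 and -0.06 over all genes. With circRNA 3 factors were then higher and 2 lower, beside 15% and 8.81% of all genes, and with PKR knockout 5 were higher and 2 lower, beside 15.3% and 19.7%. These 3 comparisons share the wild type libraries. In all, 3 of the 9 factors were higher in each of the 3, beside 7.44% of all genes. Over the 6 comparisons made here, 7 factors passed in at least 1, beside 43.8% of all genes, and Spi1 and Sall1 passed in none.

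Bhlhe40 showed the largest change from wild type among the 9 factors in each 5xFAD group. It encodes a repressor that is also induced by cytokines and low oxygen in many cells. Its levels were 3.99, 2.03 and 5.33 FPKM in wild type replicates 1 to 3, and 11.2 and 9.70 FPKM in 5xFAD EGFP. With circRNA they were 11.4, 11.2, 13.7 and 11.1 FPKM, and with PKR knockout 13.2, 14.0, 12.9 and 13.7 FPKM. Every 5xFAD library was above every wild type library. Such separation of all 5xFAD from all wild type libraries held for 3 of the 9 factors and for 18.5% of all genes tested, in either direction. The group means were 3.78 ± 1.66 (SD, n = 3), 10.4 ± 1.04 (SD, n = 2), 11.9 ± 1.21 (SD, n = 4) and 13.5 ± 0.47 FPKM (SD, n = 4). Against wild type the mean was 2.76 times as high in 5xFAD EGFP, a change of 1.32 (SE 0.22, limma adjusted p = 0.00198). It was 3.13 times as high with circRNA (1.49, SE 0.18, limma adjusted p = 9.40e-05) and 3.56 times as high with PKR knockout (1.66, SE 0.18, limma adjusted p = 3.05e-05). These calls held without each library in turn, and were lost only for 5xFAD EGFP when the fit used the 2 groups alone (limma adjusted p = 0.0649). Wild type replicate 3 was the highest wild type library for Bhlhe40, and without it the change in 5xFAD EGFP was 1.55.

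Bhlhe41, its paralogue, was at 14.0, 17.1 and 13.0 FPKM in wild type and at 21.5 and 26.3 FPKM in 5xFAD EGFP. Its circRNA libraries had 24.9, 29.9, 28.8 and 24.0 FPKM and its PKR knockout libraries 24.5, 27.3, 26.6 and 30.7 FPKM. Again no wild type library reached the lowest 5xFAD library. Means were 14.7 ± 2.13 (SD, n = 3), 23.9 ± 3.40 (SD, n = 2), 26.9 ± 2.89 (SD, n = 4) and 27.3 ± 2.59 FPKM (SD, n = 4), from 1.62 to 1.85 times wild type. The changes were 0.66 (SE 0.14, limma adjusted p = 0.00875) in 5xFAD EGFP, 0.83 (SE 0.12, 0.000289) with circRNA and 0.85 (SE 0.12, 0.000187) with PKR knockout. The first call was lost without 5xFAD EGFP replicate 2 (0.52, limma adjusted p = 0.134), which leaves a lone library assumed to vary like the other groups, and with the 2 groups alone (limma adjusted p = 0.0845). Bhlhe41 had the higher FPKM of these paralogues in all 13 libraries, by 2.44 to 8.41 times in wild type and by 1.85 to 2.71 times in 5xFAD. Gm43909, a gene model on the opposite strand, overlaps 19.0% of its exon bases, and how the counting used strand is not given in the sources used here.

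Irf8 encodes a partner of PU.1 that is needed for microglia to mature and for their interferon responses. Its values were 31.1, 34.8 and 24.2 FPKM in wild type and 44.9 and 43.5 FPKM in 5xFAD EGFP. The circRNA libraries were at 44.6, 54.7, 57.4 and 45.0 FPKM, and the PKR knockout libraries at 54.1, 57.1, 56.7 and 54.9 FPKM. All 10 5xFAD libraries were above the 3 wild type libraries for Irf8. Means were 30.1 ± 5.36 (SD, n = 3), 44.2 ± 0.95 (SD, n = 2), 50.4 ± 6.61 (SD, n = 4) and 55.7 ± 1.43 FPKM (SD, n = 4), from 1.47 to 1.85 times wild type. The changes were 0.56 (SE 0.15, limma adjusted p = 0.0260), 0.73 (SE 0.12, 0.000993) and 0.88 (SE 0.12, 0.000201). For 5xFAD EGFP the call was lost without replicate 1 (0.53, limma adjusted p = 0.147) or replicate 2 (0.58, limma adjusted p = 0.141) of that group, and with the 2 groups alone (limma adjusted p = 0.173).

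Spi1, the gene of PU.1 and the lineage-determining factor of the set, did not pass in any comparison. It was at 39.8, 44.8 and 26.7 FPKM in wild type and at 37.8 and 34.9 FPKM in 5xFAD EGFP. The circRNA libraries had 36.9, 42.2, 50.5 and 35.4 FPKM, and the PKR knockout libraries had 42.6, 45.8, 39.5 and 45.3 FPKM. The wild type range covered both 5xFAD EGFP libraries. Means were 37.1 ± 9.36 (SD, n = 3), 36.3 ± 2.1 (SD, n = 2), 41.2 ± 6.83 (SD, n = 4) and 43.3 ± 2.92 FPKM (SD, n = 4). The difference between 5xFAD EGFP and wild type was 0.00 (95% interval -0.42 to 0.42), and its sign changed with the scaling and with the libraries used. A difference within that interval was not detectable in these libraries. Spi1 differed from wild type by 0.17 with circRNA (limma adjusted p = 0.507) and 0.25 with PKR knockout (limma adjusted p = 0.254). Leaving out wild type replicate 3 gave -0.21, -0.048 and 0.032 in the 3 groups.

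Runx1 encodes a factor of blood and macrophage development that binds DNA with its partner CBF-beta. Wild type libraries had 15.1, 13.7 and 9.34 FPKM and 5xFAD EGFP libraries 15.3 and 14.9 FPKM. With circRNA the values were 14.7, 16.3, 14.1 and 14.0 FPKM, and with PKR knockout 17.3, 16.8, 17.2 and 17.1 FPKM. All 4 PKR knockout libraries were above all 9 others. Such separation of the PKR knockout libraries from all others, in either direction, held for 2 of the 9 factors and for 7.4% of all genes tested. The PKR knockout mean of 17.1 ± 0.24 FPKM (SD, n = 4) was 1.35 times the wild type mean of 12.7 ± 3.00 FPKM (SD, n = 3), a change of 0.43 (SE 0.12, limma adjusted p = 0.0167). The change was 0.24 without wild type replicate 3 (limma adjusted p = 0.0288). Runx1 no longer passed after rescaling each library to the same sum (0.21, limma adjusted p = 0.147) and with the 2 groups alone (limma adjusted p = 0.0551). Against wild type, 5xFAD EGFP differed by 0.26 (limma adjusted p = 0.298) and circRNA by 0.23 (limma adjusted p = 0.204), the latter passing only without wild type replicate 1 (0.36, limma adjusted p = 0.0491). These changes of Runx1 were 0.065 and 0.036 without wild type replicate 3.

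Cebpa encodes C/EBP-alpha, a factor of myeloid commitment. It was at 83.5, 66.3 and 48.0 FPKM in wild type and 98.6 and 79.1 FPKM in 5xFAD EGFP. The circRNA libraries had 98.4, 108.5, 115.1 and 87.6 FPKM and the PKR knockout libraries 120.3, 99.5, 120.1 and 92.7 FPKM. The circRNA and PKR knockout libraries were all above wild type, while 5xFAD EGFP overlapped it. Means were 66.0 ± 17.7 (SD, n = 3), 88.9 ± 13.8 (SD, n = 2), 102 ± 12.0 (SD, n = 4) and 108 ± 14.2 FPKM (SD, n = 4). The change was 0.73 (SE 0.18, limma adjusted p = 0.00738) with PKR knockout, kept without each library in turn. With circRNA it was 0.65 (SE 0.18, limma adjusted p = 0.0174), and it no longer passed without wild type replicate 3 (0.45, limma adjusted p = 0.0576), after rescaling each library to the same sum (0.37, limma adjusted p = 0.0652) or with the 2 groups alone (limma adjusted p = 0.0608). In 5xFAD EGFP it was 0.45 (SE 0.21, limma adjusted p = 0.202), and 0.24 without that library (limma adjusted p = 0.373).

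Sall1 encodes the zinc finger repressor that, within the brain's macrophages, is largely restricted to microglia and keeps them out of an inflammatory state. Its levels were 129.5, 122.9 and 85.9 FPKM in wild type, and 84.6 and 89.5 FPKM in 5xFAD EGFP. With circRNA they were 84.1, 102.7, 99.6 and 81.9 FPKM, and with PKR knockout 85.8, 102.1, 91.0 and 94.1 FPKM. Wild type replicates 1 and 2 were above every 5xFAD library, and replicate 3 lay among them. The means were 113 ± 23.5 (SD, n = 3), 87.1 ± 3.46 (SD, n = 2), 92.1 ± 10.6 (SD, n = 4) and 93.2 ± 6.83 FPKM (SD, n = 4). The changes of -0.35 (limma adjusted p = 0.226), -0.27 (0.190) and -0.25 (0.185) did not pass. Without wild type replicate 3 all of them passed: -0.53 in 5xFAD EGFP (limma adjusted p = 0.0177), -0.46 with circRNA (0.0127) and -0.43 with PKR knockout (0.0126). Beside the scaling, described further on, the call on Sall1 turned on 1 library, the one in which markers of neurons, astrocytes and oligodendrocytes were highest among wild type.

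Mef2a and Mef2c encode MADS-box factors that share a DNA-binding site. Mef2a was at 37.2, 38.2 and 27.9 FPKM in wild type and 25.2 and 26.6 FPKM in 5xFAD EGFP. The circRNA libraries were at 25.7, 29.8, 27.4 and 24.7 FPKM, and the PKR knockout libraries at 20.97, 24.5, 22.8 and 24.5 FPKM. The PKR knockout libraries were below all 9 others, and 1 circRNA library overlapped wild type. Means were 34.5 ± 5.68 (SD, n = 3), 25.9 ± 0.96 (SD, n = 2), 26.9 ± 2.24 (SD, n = 4) and 23.2 ± 1.69 FPKM (SD, n = 4). Mef2a fell by 0.54 with PKR knockout (SE 0.11, limma adjusted p = 0.00286), a call kept without each library in turn. In 5xFAD EGFP the change was -0.39 (SE 0.13, limma adjusted p = 0.0785), and it passed without wild type replicate 3 (-0.53, limma adjusted p = 0.00596). With circRNA it fell by 0.34 (SE 0.11, limma adjusted p = 0.0438). Mef2a no longer passed in 5 of the 7 fits that left out a library: without wild type replicate 1 (limma adjusted p = 0.137) or 2 (0.160), or without circRNA replicate 1 (0.0974), 3 (0.0659) or 4 (0.0932). It did not pass with the 2 groups alone either (limma adjusted p = 0.141). Lysmd4, on the opposite strand, overlaps 2.06% of the exon bases of Mef2a.

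Mef2c had 21.05, 17.9 and 13.8 FPKM in wild type and 20.6 and 22.0 FPKM in 5xFAD EGFP. Its circRNA values were 23.2, 26.3, 24.7 and 21.5 FPKM, and its PKR knockout values 17.5, 19.8, 17.8 and 21.9 FPKM. The circRNA libraries were all above wild type, and the PKR knockout libraries overlapped it. The circRNA mean of 23.9 ± 2.04 FPKM (SD, n = 4) was 1.36 times the wild type mean of 17.6 ± 3.61 FPKM (SD, n = 3), a change of 0.44 (SE 0.13, limma adjusted p = 0.0233). The call was lost without wild type replicate 3 (0.29, limma adjusted p = 0.0796), circRNA replicate 2 (0.39, 0.0640) or circRNA replicate 3 (0.42, 0.0512), after rescaling to the same sum (0.16, limma adjusted p = 0.262) and with the 2 groups alone (limma adjusted p = 0.0801). In 5xFAD EGFP the change was 0.28 (limma adjusted p = 0.270) and with PKR knockout 0.14 (limma adjusted p = 0.419). Leaving out wild type replicate 3 gave 0.13 and -0.016 for Mef2c.

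**Figure D3:**
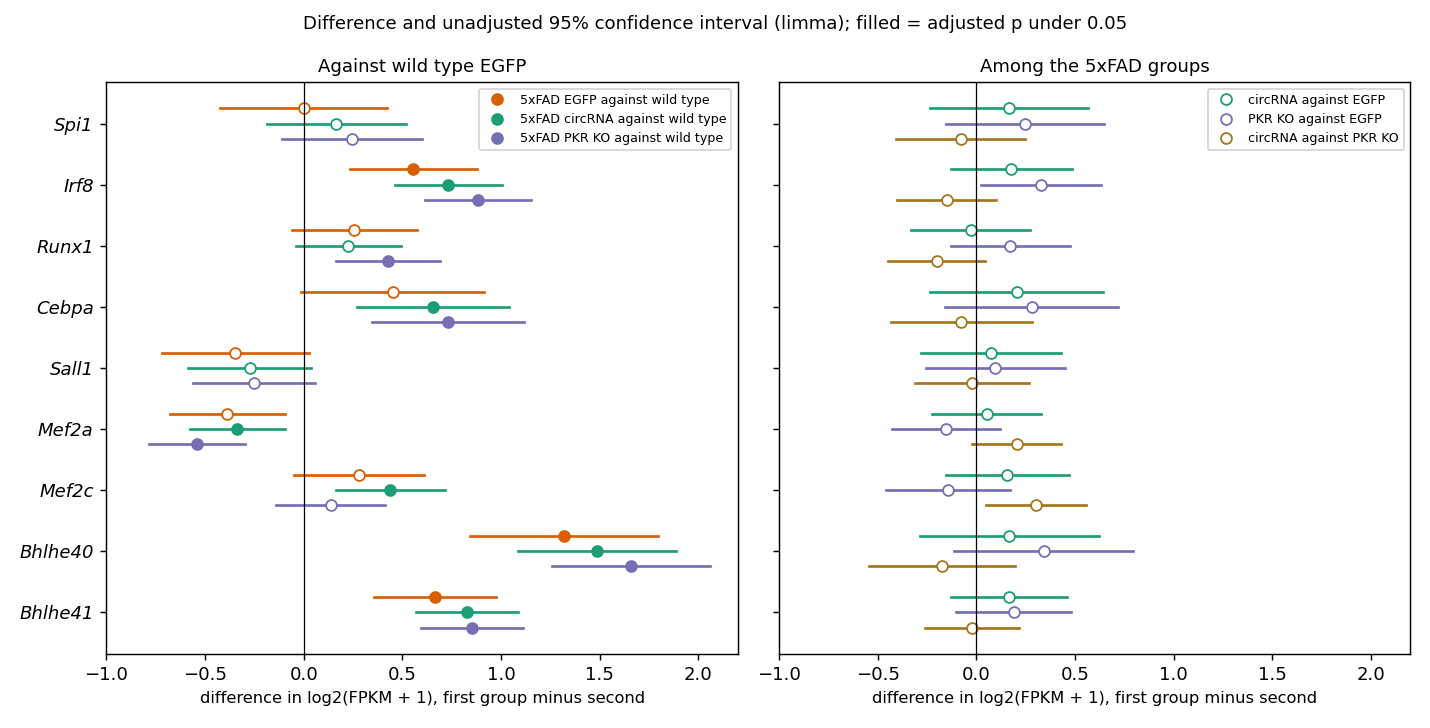
Difference in log2(FPKM + 1) with its unadjusted 95% confidence interval from limma for each factor, against wild type on the left and among the 5xFAD groups on the right, with filled points where the adjusted p is under 0.05. On the left Bhlhe40 lies farthest from 0 (1.32 to 1.66), and on the right no point is filled.

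FPKM depends on what else is in the library, so the directions were checked under other scalings. Rescaling each library to the same sum moved the median change of all genes from -0.03 to -0.17 in 5xFAD EGFP, from 0.02 to -0.20 with circRNA and from -0.05 to -0.24 with PKR knockout. Taken relative to that median, Irf8 in 5xFAD EGFP was 0.59 before and 0.56 after rescaling, Bhlhe40 1.35 and 1.36, and Bhlhe41 0.70 and 0.67. On the same footing Sall1 was at -0.31 and -0.35, Mef2a at -0.35 and -0.38, and Cebpa at 0.48 and 0.45. Rescaling divides a library by a single number and moves its genes nearly alike, so this likeness was fixed in advance and checks nothing. Without the median taken off, rescaling put Spi1 below 0 in 5xFAD EGFP (-0.17) and with circRNA (-0.12). It also put Runx1 with circRNA (-0.044) and Mef2c with PKR knockout (-0.084) below 0. With that rescaling Sall1 passed as lower in all 3 5xFAD groups (limma adjusted p = 0.0285, 0.00522 and 0.00905), as did 27.7%, 43.3% and 50.1% of all genes.

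Ratios between 2 factors in the same library do not depend on its scaling, and they are given here as a description, since the pairs were picked after the values were seen. Irf8 over Spi1 was 0.781, 0.777 and 0.908 in wild type and 1.14 to 1.44 in the 10 5xFAD libraries. Irf8 over Mef2a was 0.836 to 0.911 in wild type, 1.64 to 1.78 in 5xFAD EGFP, 1.73 to 2.09 with circRNA and 2.24 to 2.58 with PKR knockout. Bhlhe41 over Mef2c was 0.666 to 0.956 in wild type and 1.04 to 1.49 in 5xFAD. In these 3 pairs the factor with the higher FPKM differed between the 3 wild type and the 10 5xFAD libraries. How often pairs of other genes do so was not computed. Mef2c over Mef2a was 0.468 to 0.565 in wild type and 0.781 to 0.902 in 5xFAD, with Mef2a the higher in every library. Cebpa over Sall1 was 0.540 to 0.645 in wild type and 0.883 to 1.40 in 5xFAD. Wild type replicate 3, low in 8 of the factors, had ratios of 0.868 for Irf8 over Mef2a and 0.495 for Mef2c over Mef2a, each between the other wild type libraries.

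**Figure D4:**
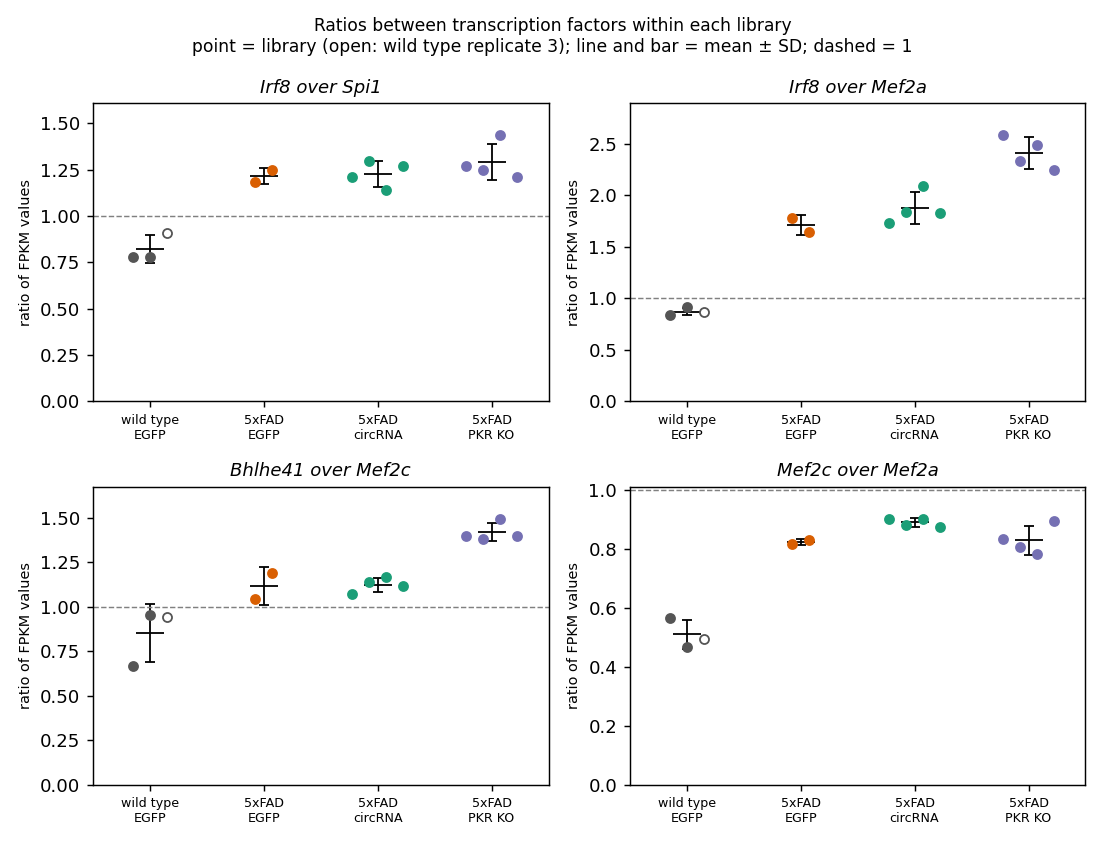
Ratios of FPKM values between pairs of factors within each library (linear axes from 0), by group, with a point for each library, wild type replicate 3 drawn open, a line and bar for the mean ± SD, and a dashed line at 1. Irf8 over Mef2a lies below 1 in wild type (0.836 to 0.911) and highest with PKR knockout (2.24 to 2.58).

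Comparing circRNA with EGFP in 5xFAD mice asks whether the circular RNA changes these factors. None of the 9 passed in limma, none had an unadjusted p under 0.05, and 0% of all genes tested were called (523 of 10817 had an unadjusted p under 0.05). The ranges of the 2 groups overlapped for all 9 factors, while 19.3% of all genes tested did not overlap. Changes ran from -0.03 for Runx1 to 0.20 for Cebpa, with limma adjusted p from 0.743 to 0.947. The 95% intervals reached from -0.33 for Runx1 to 0.64 for Cebpa, and differences within them were not detectable with 2 EGFP libraries. Among the circRNA libraries, 7 of the 9 factors were higher in both replicates 2 and 3 than in replicates 1 and 4, a split made after the values were seen, which 38.9% of all genes tested also show. Replicates 2 and 3 had microglia marker sums of 4404 and 4717 FPKM against 3695 and 3172 FPKM, and oligodendrocyte sums of 290 and 281 FPKM against 702 and 748 FPKM. The treatment labels of these libraries also differ, and the part of either in the spread was not tested.

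Comparing PKR knockout with EGFP in 5xFAD mice asks whether the libraries so labelled differ in these factors, any vector or library-making difference included. No factor passed in limma, where 0.0832% of all genes were called, and 1 of the 9, Irf8, had an unadjusted p under 0.05, beside 13.0% of all genes. Irf8 differed by 0.33 (95% interval 0.02 to 0.63, limma adjusted p = 0.356) and Bhlhe40 by 0.34 (-0.11 to 0.79, 0.492). With the 2 groups alone both passed (limma adjusted p = 0.0430 and 0.0454), as did 5.33% of all genes. Spi1, Irf8, Runx1 and Bhlhe40 were higher in all 4 knockout libraries than in both EGFP libraries, and Mef2a was lower in all 4. These 5 of 9 stand beside 34.8% of all genes tested whose ranges did not overlap between the same libraries. The remaining 4 factors overlapped. Oligodendrocyte markers were also lower in all 4 knockout libraries, with sums of 213 to 359 FPKM against 597 and 641 FPKM with EGFP. Neuron marker sums were lower as well, at 4.59 to 7.82 FPKM against 10.5 and 12.6 FPKM. Sums of astrocyte markers and of endothelial and mural markers overlapped. The part of these cells in the factors' differences was not tested. Intervals over the 9 ran from -0.46 to 0.79.

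Comparing circRNA with PKR knockout sets the 2 interventions side by side. In limma 0 of the 9 passed, beside 6.19% of all genes tested, and 1 had an unadjusted p under 0.05, beside 25.5% of all genes. That factor was Mef2c, higher with circRNA by 0.30 (SE 0.12, 95% interval 0.05 to 0.56, limma adjusted p = 0.133). Runx1 was lower with circRNA by a change of -0.20 (limma adjusted p = 0.283), and Mef2a higher by 0.20 (limma adjusted p = 0.236). All 5 oligodendrocyte markers had higher means of log2 values with circRNA (median change 0.85, 3 with an unadjusted p under 0.05), and so did 4 of 5 astrocyte markers (median change 0.54). None of these passed by limma's adjusted p, the summed levels of both lists overlapped between the groups, and their part in the factors' differences was not tested. Runx1 and Mef2a, 2 of the 9, did not overlap between these groups, beside 19.5% of all genes tested. For Sall1 and Bhlhe41 the change was -0.02 each (95% intervals -0.31 to 0.27 and -0.26 to 0.22).

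Paralogues and binding partners of the 9 factors form a list of 17 genes, of which 9 were expressed enough to test. The counts of this and the next 3 lists are to be read against the shares of all genes called higher and lower than wild type: 7.65% and 6.35% in 5xFAD EGFP, 17.8% and 8.05% with circRNA, and 17.5% and 19.4% with PKR knockout. When wild type replicate 3 was left out, those shares were 8.96% and 9.51%, 15% and 8.81%, and 15.3% and 19.7%. Spib, Spic, Irf4, Runx2, Runx3, Sall4, Mef2b and Cebpe had means below 1 FPKM. In 5xFAD EGFP against wild type 0 rose and 2 fell, Cebpd (-0.63, limma adjusted p = 0.0181) and Sall2 (-0.40, limma adjusted p = 0.0176), and the median change was 0.04. With circRNA 2 rose and 2 fell: Cbfb, the partner of RUNX1 (0.49, limma adjusted p = 0.00617), Irf1 (0.44, limma adjusted p = 0.0185), Cebpd and Sall2. With PKR knockout 2 rose, Irf1 (0.86, limma adjusted p = 0.000208) and Mef2d (0.43, limma adjusted p = 0.00229), and again Cebpd and Sall2 fell. Without wild type replicate 3, Irf1 no longer passed with circRNA (0.33, limma adjusted p = 0.0686) and the other named calls of this list against wild type held. Cebpd and Sall2 thus fell in each 5xFAD group while Cebpa did not fall in any. Irf1, an interferon-induced factor, was also lower with circRNA than with PKR knockout (-0.42, limma adjusted p = 0.0491). In that comparison, here and in the next 3 lists, 4.28% of all genes were called higher and 1.91% lower with circRNA.

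Among 21 other factors of microglia and macrophages, 1 rose and 1 fell in 5xFAD EGFP: Id2, a partner-blocking helix-loop-helix protein (0.58, limma adjusted p = 0.0374), and Maf, a macrophage differentiation factor (-0.65, limma adjusted p = 0.0416). With circRNA 1 rose and 2 fell, Tcf4 (-0.22) beside Maf (-0.62). With PKR knockout 7 rose and 5 fell, led by Fos (1.30, limma adjusted p = 0.00128), Id2 (0.95), Maf (-0.74) and Ets1 (-0.48). Fos and Jun, the AP-1 pair induced within minutes of cell stress, were lower with circRNA than with PKR knockout (-1.40 and -0.71, limma adjusted p = 0.00710 and 0.0367). Medians of this list were -0.03, -0.01 and 0.03 in the 3 comparisons with wild type. Without wild type replicate 3 the counts were 1 and 3 in 5xFAD EGFP, 1 and 2 with circRNA, and 5 and 4 with PKR knockout. Tcf4 then no longer passed with circRNA (-0.16, limma adjusted p = 0.111). Ets1 then passed in 5xFAD EGFP (-0.42, limma adjusted p = 0.0381), and Ikzf1, a lymphoid and myeloid zinc finger factor, in 5xFAD EGFP (-0.39, limma adjusted p = 0.0367) and with circRNA (-0.31, limma adjusted p = 0.0384).

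Of 14 factors of lipid handling, lysosomes and hypoxia, 11 were tested, and 4, 5 and 6 rose in 5xFAD EGFP, circRNA and PKR knockout against wild type, with none falling. Hif1a, the hypoxia factor, was at 11.1 FPKM in wild type and 48.3, 56.6 and 56.7 FPKM in the 5xFAD groups (changes 2.03, 2.25 and 2.25, limma adjusted p at most 5.76e-06). Atf3, a stress-induced repressor, changed by 1.58, 1.16 and 2.15, and it was lower with circRNA than with PKR knockout (-0.99, limma adjusted p = 0.00794). So was Ppard, of the same list (-0.34, limma adjusted p = 0.0116). Without wild type replicate 3 the counts higher were 5, 6 and 6, and 1 factor was lower with circRNA.

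A list of 20 genes known to be controlled by these factors, 9 of which are also among the 10 microglia markers, moved in both directions. In 5xFAD EGFP 5 rose and 1 fell, with circRNA 7 and 1, and with PKR knockout 8 and 4. Csf1, a growth factor of macrophages, rose from 5.51 FPKM in wild type to 69.5, 66.7 and 93.6 FPKM (changes 3.44, 3.38 and 3.85). Tyrobp, the signalling adaptor of TREM2, rose by 1.68, 1.82 and 1.74 in the 3 groups, and Cd68, a lysosomal protein, by 1.63, 1.81 and 1.80 (limma adjusted p at most 0.00109). Tmem119, a marker of resting microglia, changed by -1.07, -0.94 and -0.78 in the 3 groups (limma adjusted p = 0.0227, 0.0111 and 0.0207). P2ry12 and P2ry13, purine receptors of resting microglia, changed by -0.94 and -0.78 with PKR knockout (limma adjusted p = 0.00227 and 0.00444). P2ry12 did not pass in 5xFAD EGFP (-0.50, limma adjusted p = 0.178) or with circRNA (-0.38, limma adjusted p = 0.162), but did in both without wild type replicate 3 (-0.74 and -0.62, limma adjusted p = 0.0146 and 0.0119). When wild type replicate 3, in which these markers were low, was left out, the counts were 5 and 4, 6 and 4, and 7 and 7. Compared with PKR knockout, circRNA had P2ry13 higher (0.64, limma adjusted p = 0.0408) and Csf1 lower (-0.47, limma adjusted p = 0.0350). List members were chosen with earlier results of these data known, and the counts describe these libraries only.

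For each factor that passed in at least 1 comparison, the 2 genes with the most similar course over the 13 libraries were found by the root mean square difference of centred log2(FPKM + 1) values among 10817 genes. Irf8 was closest to Nucb1 (0.053) and Slc38a10 (0.057), beside its own SD of 0.38 across libraries. Runx1 was closest to Blnk (0.048), a B cell and macrophage adaptor, and Prr13 (0.079). Mef2a was nearest to Mgat4a (0.067) and to Cd33 (0.071), a sialic acid receptor of myeloid cells. Mef2c was nearest to Cbfb (0.070) and Reep3 (0.070). The closest genes to Bhlhe40 were Psat1 (0.177), an enzyme of serine synthesis, and Rap2b (0.180), beside an SD of 0.72. Bhlhe41 had Plxdc2 (0.088) and Abcb1b (0.089), and Cebpa had Ywhah (0.101) and H2-Ob (0.113). The likeness includes the difference between wild type and 5xFAD and the low values of wild type replicate 3.

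Leaving out each library in turn showed which calls of 5xFAD EGFP against wild type rested on 1 library. The number of factors that passed ranged from 1, without 5xFAD EGFP replicate 2 (beside 5.23% of all genes), to 5, without wild type replicate 3 (beside 18.5%). Bhlhe40 passed in each of these 5 fits. In the same comparison 5 factors passed after rescaling to the same sum, beside 34.3% of all genes, and 0 with the 2 groups alone, beside 4.71%. With circRNA against wild type, 3 passed with the 2 groups alone, beside 15.9% of all genes. Every change from wild type in 5xFAD EGFP kept its sign when a library was left out, except that of Spi1.

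**Figure D5:**
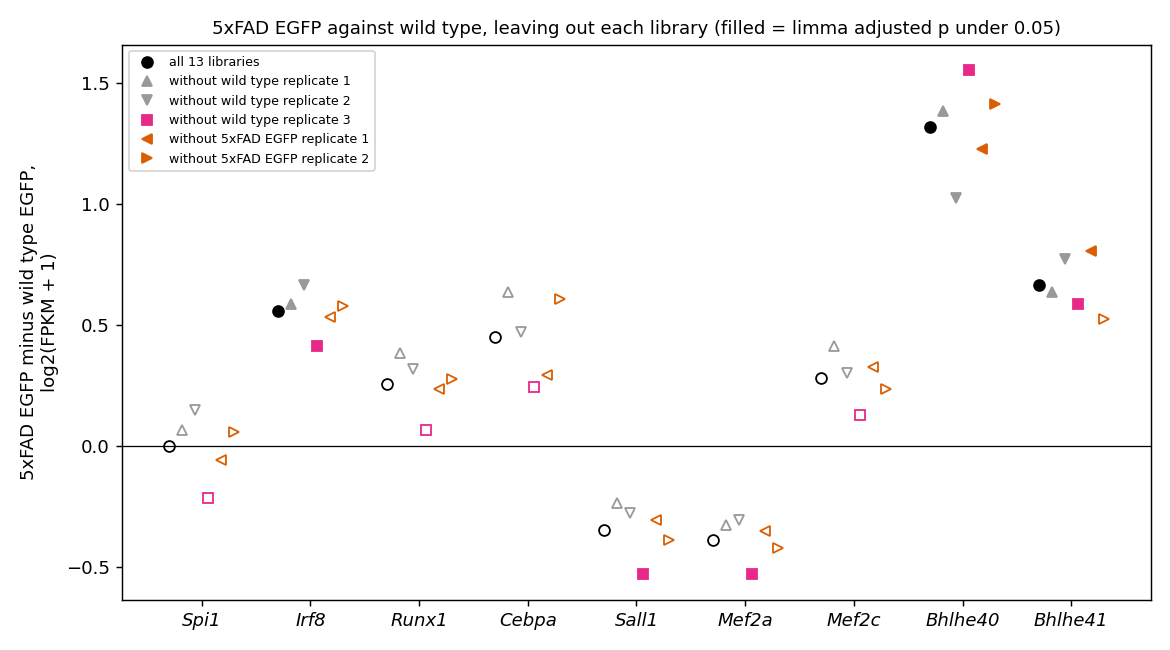
Change of each factor in 5xFAD EGFP against wild type, in log2(FPKM + 1), with all 13 libraries and with each of the 5 libraries of these groups left out, filled where limma's adjusted p is under 0.05. Sall1 and Mef2a are filled only without wild type replicate 3 (-0.53 each), and Bhlhe40 is filled in all 6 fits.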

How the data were processed

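Microglial RNA was measured in 13 libraries grouped by their titles (n = 3, 2, 4 and 4). The authors deposited 1 table of FPKM values for 19737 genes, with 1 column a library. Per the submitters' processing notes the build is mm10 and the tools named are Bowtie2 2.3.5, HISAT2 2.1.0 and featureCounts 1.5.1. The settings and the use of strand in counting are not given in the sources used here. FPKM is relative to each library's total, so a change in abundant genes moves the others.

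Depth was recovered from the FPKM steps and GENCODE M21 exon lengths (98.2% of genes). Of the low values, 88.7% to 91.5% were whole fragments within 0.02, against 4% by chance. Intervals of counting error do not cover isolation or library making. Differences were tested with limma 3.58.1 (R 4.3.3, eBayes with trend) on log2(FPKM + 1) for the 10817 genes whose mean reached 1 FPKM, in 1 model over all libraries (9 residual degrees of freedom). P-values were two-sided and adjusted by Benjamini-Hochberg within each of 6 comparisons, at 0.05. The fit was also run on simulated data with independent noise and no library set apart. That run says nothing of calls that turn on wild type replicate 3.

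The 9 genes, the lists and the markers were chosen with earlier results of these data known. Named genes were all 9 in every comparison, at most 2 called genes in each direction from each list in each comparison, and the 2 nearest genes of each factor that passed. Alternatives were a pseudocount of 0.1, no filter, median-ratio scaling, rescaling to equal sums, fitting the 2 groups alone, the replicate number as a block, and leaving out each library. Values of those list genes in other comparisons, and Ikzf1, were added after seeing the data. List counts and list genes without wild type replicate 3 were added after seeing the data.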

Additional observations from a re-analysis of the deposited data

Results flagged for a closer look

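Each factor was checked for a library far from the others in the groups of 4, 18 checks in all, of which chance flags about 1 in 20. Bhlhe40 in the circRNA group had 1 library, replicate 3, at 13.7 FPKM, beside 11.1, 11.2 and 11.4 FPKM in the others. The gap was 0.909 of the group's range, above the 95% critical value of Dixon's test for 4 samples. That library lies within the PKR knockout range of 12.9 to 14.0 FPKM for the same gene.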

How the results depend on the processing

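Over all alternatives, 620 member results kept their direction and side of the threshold, 24 lost their call, 11 gained one and 20 changed sign, none of the last past the threshold. Bhlhe40, Bhlhe41 and Irf8 passed against wild type in all 13 alternatives with circRNA and with PKR knockout, as did Cebpa and Mef2a with PKR knockout. In 5xFAD EGFP against wild type, 5 factors passed after rescaling to the same sum (beside 34.3% of all genes), 0 with the 2 groups alone (4.71%), and 1 to 5 when a library was left out (5.23% and 18.5%). With the 2 groups alone 2 passed in PKR knockout against 5xFAD EGFP (beside 5.33%), and 3 in circRNA against wild type (15.9%). The cause of these shifts was not tested.

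Sign changes were small. After rescaling to the same sum, Spi1 was at -0.17 in 5xFAD EGFP and -0.12 with circRNA against wild type, Runx1 at -0.044 with circRNA and Mef2c at -0.084 with PKR knockout. In circRNA against 5xFAD EGFP, Sall1 and Mef2a were at -0.042 and -0.062 after that rescaling and at -0.028 and -0.047 under median-ratio scaling. When a library was left out, Spi1 ranged from -0.21 to 0.15 in 5xFAD EGFP and from -0.048 to 0.31 with circRNA against wild type, and Mef2c from -0.016 to 0.27 with PKR knockout. In circRNA against PKR knockout, Sall1 ranged from -0.076 to 0.031 and Bhlhe41 from -0.073 to 0.035.

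Replicate numbers are shared between groups, but the labels do not say that they pair libraries. Deviations from the group means correlated at -0.42 to 0.69 between same-numbered libraries. For replicate 2 these correlations were 0.17 to 0.69, beside means of -0.27 to -0.083 with libraries of other numbers. Whether the numbers pair libraries was not settled. With the number as a replicate block, Irf8 in 5xFAD EGFP (0.54, limma adjusted p = 0.0632) and Mef2a with circRNA (-0.33, limma adjusted p = 0.0640) no longer passed against wild type, leaving 2 and 5 factors. Under the block Spi1 was at -0.049 in 5xFAD EGFP against wild type and Runx1 at 0.057 in circRNA against 5xFAD EGFP. It changed no other call of a factor.

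Over all genes, rescaling to the same sum gave 3709, 5676 and 6595 calls in 5xFAD EGFP, circRNA and PKR knockout against wild type, beside 1514, 2796 and 3997, and the called genes were mostly lower (3001, 4681 and 5421). With the 2 groups alone the counts were 509 and 1725 for the first 2, and 577 for PKR knockout against 5xFAD EGFP, where 9 was the main count. That comparison gave 0 with a pseudocount of 0.1, without the filter or after rescaling, 46 under median-ratio scaling, 22 under the block and 0 to 2 without a library. Without a library, 5xFAD EGFP against wild type gave as few as 566 and circRNA against PKR knockout as few as 147. Having 2 EGFP libraries in 5xFAD limits the comparisons with them, and counting error was at most 4.68% of any factor's value.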
